A study of Mus musculus with 48 samples.

Results

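Cholesterol synthesis and its control were followed through 28 named genes. Among them were enzymes that carry acetyl-CoA through mevalonate and squalene to cholesterol. Others were the transcription factor SREBP2 (gene Srebf2) and the proteins that retain or release it. The rest, called further targets here, were genes listed as other SREBP2 targets or for sterol transport and esterification. The 28 genes were found by gene symbol in a count table of 22354 genes, where 27 of the 28 had a row. The level of Hmgcs1 was not analysed here. All 27 passed the filter on low counts. Liver poly-A RNA had been sequenced from C57BL/6 mice of 2 genotypes. In KO mice both alleles of Bmal1 (listed as Arntl) were floxed and Cre recombinase was expressed from the aP2 promoter, a driver used for adipocytes. WT mice were littermate controls, whose Cre and floxed status the labels do not give. All mice were 4 to 6 months old per the design text, and all had spent 36 h in constant darkness before they were killed in darkness at 0, 4, 8, 12, 16 or 20 h. Each mouse gave 1 library. KO groups held 4 mice at each time and 3 at 16 h, and WT groups held 4 mice at each time and 5 at 16 h, while the design text gives 4 for every group.

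In animals, cholesterol is made in the endoplasmic reticulum from acetyl-CoA, and liver is a main site. When membrane sterol is low, the escort protein SCAP carries the SREBP2 precursor to the Golgi, where it is cut to release a transcription factor that binds sterol regulatory elements in the promoters of these genes. When sterol is plentiful, INSIG1 and INSIG2 hold SCAP in the endoplasmic reticulum. Feeding raises the pathway in liver and fasting lowers it, and in nocturnal rodents cholesterol synthesis is known to be higher in the active phase. BMAL1 is the activating partner of CLOCK in the circadian clock, and the comparisons ask how its floxed deletion under the aP2 driver relates to this pathway and to its daily rhythm in liver.

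The 48 libraries held 12841969 to 13009797 counts each when albumin is left out, with a median of 12929297. Levels are given in CPM, which puts counts on a library-size scale set by edgeR's TMM factors. The labels name liver as tissue and adipocyte as cell type. The summed level of 7 hepatocyte markers was 15220 to 44530 CPM in KO and 18598 to 40607 CPM in WT. Of the 5 adipocyte markers, Adipoq, Lep and Plin1 had a median count of 0. Fabp4 and Cidec were present in every library, at 46 to 196 and 17 to 1008 counts (medians 107 and 98.5). The design text calls the mice male, but Xist, an RNA of the inactive X chromosome, had 3029 to 13969 counts in every library, and Uty, Kdm5d and Eif2s3y of the Y chromosome had 1 count each in all libraries together. The targeted gene Arntl was present in both genotypes. Over the 6 times from 0 to 20 h its means were 32.4, 9.54, 3.68, 6.34, 26.3 and 32.1 CPM in KO, against 37.0, 21.1, 2.14, 2.02, 16.2 and 32.3 CPM in WT. It was lower in KO at 4 h (6.08 to 12.6 CPM, against 12.4 to 34.2 CPM in WT) and higher in KO at 16 h (19.2 to 36.1 CPM, against 13.8 to 21.3 CPM in WT), with overlapping ranges at both. The gene count does not single out the floxed segment, so it does not check the deletion. Some libraries held transcripts of other tissues. Summed adrenal cortex markers reached 133 CPM in WT_0h replicate 3 (next library 5.16 CPM), where Kupffer cell markers were also highest (815 CPM), and summed exocrine pancreas markers reached 311 CPM in KO_0h replicate 2 (next 22.2 CPM). These libraries and KO_16h replicate 2, which earlier work on these data had found unusual, were left out in an alternative fit. What set KO_16h replicate 2 apart is not shown here, and it is 1 of 3 KO livers at 16 h. In whole liver, fewer cells of a type and less RNA per cell cannot be told apart.

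Promoter sequence was read for 23 of the 28 genes, in 30 windows that run from 250 bases before to 50 bases after an annotated start (RefSeq, GRCm38.p6, a different build from that of the counts). The windows of 4 genes are printed because the results below turn on these genes: Sc4mol (RefSeq name Msmo1) had the largest difference between the genotypes, Srebf2 encodes the driver of the pathway, and Insig1 and Insig2, paralogs with the same task, peaked hours apart. Capitals mark 3 motifs searched on both strands: the core of the sterol regulatory element (TCACNCCA), the CCAAT box bound by NF-Y, a known partner of SREBP2, and the E-box bound by CLOCK and BMAL1 (CACGTG).
Sc4mol, chr8:64733529-64733828, minus strand: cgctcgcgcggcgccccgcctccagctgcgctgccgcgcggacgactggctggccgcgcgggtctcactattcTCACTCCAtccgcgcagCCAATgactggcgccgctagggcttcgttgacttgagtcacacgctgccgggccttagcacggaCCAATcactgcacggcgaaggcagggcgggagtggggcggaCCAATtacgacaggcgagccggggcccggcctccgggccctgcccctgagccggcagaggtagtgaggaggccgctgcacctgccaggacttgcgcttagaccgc
Srebf2, chr15:82147019-82147318, plus strand: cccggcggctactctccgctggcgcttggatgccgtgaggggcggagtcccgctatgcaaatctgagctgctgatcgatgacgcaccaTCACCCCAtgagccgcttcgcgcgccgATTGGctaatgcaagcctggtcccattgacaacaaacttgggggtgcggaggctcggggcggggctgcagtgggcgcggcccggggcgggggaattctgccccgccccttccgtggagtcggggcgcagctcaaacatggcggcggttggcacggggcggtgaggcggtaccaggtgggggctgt
Insig1, chr5:28071162-28071461, plus strand: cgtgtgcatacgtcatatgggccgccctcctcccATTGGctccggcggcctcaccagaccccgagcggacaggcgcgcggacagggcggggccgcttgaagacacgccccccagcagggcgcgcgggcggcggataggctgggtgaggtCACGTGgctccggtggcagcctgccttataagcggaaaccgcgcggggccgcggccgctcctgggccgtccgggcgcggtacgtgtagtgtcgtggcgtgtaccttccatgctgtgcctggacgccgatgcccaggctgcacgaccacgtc
Insig2, chr1:121332540-121332839, minus strand: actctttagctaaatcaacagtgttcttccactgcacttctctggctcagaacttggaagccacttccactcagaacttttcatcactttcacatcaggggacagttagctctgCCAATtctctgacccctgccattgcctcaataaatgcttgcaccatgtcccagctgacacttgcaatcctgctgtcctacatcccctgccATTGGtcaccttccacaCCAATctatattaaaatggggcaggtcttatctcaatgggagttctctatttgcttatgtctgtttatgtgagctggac

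The Sc4mol window held the sterol element core at position -177 from the start and CCAAT boxes at -160, -96 and -55. The Srebf2 window held the core at -162 and a CCAAT box on the opposite strand at -135. The Insig1 window held an E-box at -101, which overlaps the nuclear receptor half-site AGGTCA at -105, and a CCAAT box at -216. The Insig2 window, the first of its 3, held 3 CCAAT boxes and neither of the other motifs. Over the 30 windows, CCAAT was found in 20 (66.67%), against 37.41% of the 32851 promoter windows of all genes. The E-box was found in 7 windows of 6 genes (23.33%, against 7.15% of all), Hsd17b7, Sc5d, Dhcr7, Scap, Insig1 and Rdh11. The sterol element core was found in 3 (10.0%, against 4.362%), those of Hmgcs1, Sc4mol and Srebf2. AGGTCA was found in 6 (20.0%, against 16.26%), and the D-box TTATGNAA in 0 (3.385% of all). Windows of a gene can overlap, and a shared site was counted in each window. Those of Scap share the same E-box, and the first and second of Dhcr7 share an AGGTCA. A match describes letters in these windows and is not a measured binding site.

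None of the 27 genes differed between KO and WT across the 6 times at an adjusted p of 0.05 (edgeR quasi-likelihood test, Benjamini-Hochberg over all genes tested), against 1.4% of the 13646 genes tested. At an unadjusted p of 0.05, edgeR gave 4 of 27 (Sc4mol, Sc5d, Stard4 and Soat2) and DESeq2, which also called 0, gave 5, against 17.1% of all genes in edgeR. At an adjusted p DESeq2 called 356 of the 13646 genes, and its unadjusted share over all genes was not counted. The KO minus WT difference was positive for 20 genes and negative for 7, where 48.9% of all genes were positive. Its median over the 27 was 0.09 on the log2 scale, against -0.00 over all genes. Signs of the 27 genes, here and at single times, are not separate observations, since many of the genes varied together between livers of a group. Differences ranged from -0.30 ± 0.26 (SE) for Dhcr7, the reductase of the last step, to 0.59 ± 0.24 for Sc4mol, with adjusted p-values between 0.202 and 0.968. Without the 3 unusual libraries 0 genes were called and 5 passed at an unadjusted p (edgeR). In that fit 303 of all 13842 genes tested were called, and the unadjusted share was not counted.

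**Figure D1:**
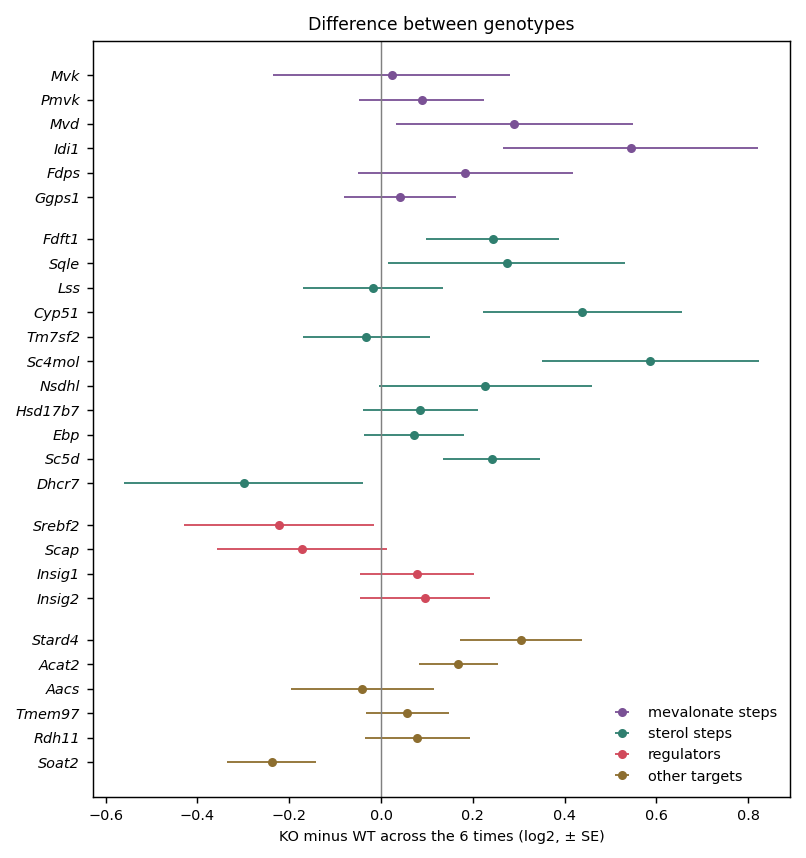
KO minus WT difference of each of the 27 genes across the 6 times (x axis, log2; point, edgeR estimate; bar, ± 1 SE), grouped by role. The 6 mevalonate genes lie at or to the right of 0 and the largest value is 0.59 for Sc4mol, but no gene passed the test.

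The plot of the differences shows how the roles compare. All 6 measured enzymes of the mevalonate steps had a positive difference, although that of Mvk was -0.11 without the 3 unusual libraries, as did 8 of 11 enzymes of the sterol steps, 2 of 4 regulators and 4 of 6 further targets. Cyp51, Sc4mol and Sc5d were positive at each of the 6 times, where 3.61% of all genes were, and Soat2 was negative at each, where 4.92% were. At single times, 0 of 27 genes were called at any time in edgeR, where 0.0147% of all genes were called at 0 h, 0.0366% at 4 h and 0.022% at 16 h, and 0% at 8, 12 and 20 h. At an unadjusted p of 0.05, edgeR gave 0, 3, 2, 2, 1 and 0 genes at 0, 4, 8, 12, 16 and 20 h, and DESeq2, which also called 0 at every time, gave 0, 4, 2, 4, 1 and 0. Over all genes, edgeR's unadjusted share was 5.53, 23.3, 1.82, 4.4, 6.65 and 1.84% at these times. DESeq2's unadjusted share over all genes was not counted. At an adjusted p DESeq2 called 11, 192, 2, 3, 17 and 0 of 13646 genes at these times. The median difference of the 27 was 0.23, 0.28 and 0.34 at 0, 4 and 8 h, -0.03 and -0.05 at 12 and 16 h, and 0.19 at 20 h. Positive differences numbered 21, 17 and 21 of 27 at 0, 4 and 8 h, 11 and 9 at 12 and 16 h, and 19 at 20 h. The change of the genotype difference with time was tested as an interaction, and 0 of 27 genes passed in edgeR (0.00733% of all genes). At an unadjusted p, 1 gene (Aacs) passed in edgeR, against 3.28% of all genes, and DESeq2 gave 0 adjusted and 1 unadjusted. Over all genes, DESeq2 called 11 of 13646 at an adjusted p, and its unadjusted share was not counted.

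Among the mevalonate steps are the kinases Mvk and Pmvk, the decarboxylase Mvd, the isomerase Idi1, and Fdps and Ggps1, which build farnesyl and geranylgeranyl diphosphate. Idi1 (ENSMUSG00000058258, chromosome 13, 8884852 to 8891641 in mm9), which interconverts the isoprene units isopentenyl and dimethylallyl diphosphate, had the largest difference of these. At 0 h Idi1 stood at 29.8, 11.3, 20.9 and 17.6 CPM in the KO livers, against 19.2, 7.42, 9.29 and 6.70 CPM in the WT livers. At 4 h Idi1 stood at 16.1, 42.6, 73.0 and 8.74 CPM in the KO livers, against 16.6, 8.48, 25.8 and 10.5 CPM in the WT livers. At 8 h Idi1 stood at 33.8, 51.7, 24.2 and 17.5 CPM in the KO livers, against 34.4, 32.0, 6.97 and 17.6 CPM in the WT livers. At 0 h 3 of 4 WT livers lay below every KO liver and the highest WT liver lay among them, at 4 h 2 KO livers exceeded all WT livers, and at 8 h the groups overlapped. At 12 h Idi1 stood at 51.9, 78.4, 36.2 and 22.3 CPM in the KO livers, against 40.6, 19.5, 40.9 and 20.1 CPM in the WT livers. At 16 h Idi1 stood at 32.2, 68.0 and 109 CPM in the KO livers, against 76.0, 141, 34.1, 3.40 and 69.5 CPM in the WT livers. At 20 h Idi1 stood at 11.2, 51.1, 29.6 and 12.5 CPM in the KO livers, against 16.2, 40.5, 47.3 and 4.80 CPM in the WT livers. The groups overlapped at each of these times, and the highest and the lowest of all 48 values both belonged to WT livers at 16 h. The difference across times was 0.54 ± 0.28 on the log2 scale (adjusted p = 0.307). Group means spanned a 3.50-fold range over the day in KO and a 6.08-fold range in WT, lowest at 0 h and highest at 16 h in both. Of the others, Mvd differed by 0.29 ± 0.26, Fdps by 0.18 ± 0.23, Pmvk by 0.09 ± 0.14, Ggps1 by 0.04 ± 0.12 and Mvk by 0.02 ± 0.26 (log2). Counts of Ggps1 are uncertain where it shares 170 bases with Arid4b, since the library kit does not keep strand.

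The sterol steps run from Fdft1, the squalene synthase, to Dhcr7. Sqle (ENSMUSG00000022351, chromosome 15, 59146632 to 59162747 in mm9), the squalene epoxidase and a rate-limiting enzyme of this stretch, varied widely within groups. At 0 h Sqle stood at 51.2, 14.1, 36.5 and 29.5 CPM in the KO livers, against 44.7, 13.4, 21.5 and 9.58 CPM in the WT livers. At 4 h Sqle stood at 47.5, 87.2, 79.5 and 11.9 CPM in the KO livers, against 48.3, 17.9, 38.6 and 16.0 CPM in the WT livers. At 8 h Sqle stood at 44.6, 59.9, 28.9 and 22.9 CPM in the KO livers, against 51.2, 35.2, 7.96 and 19.4 CPM in the WT livers. The genotypes overlapped at all 3 times, and the lowest of all 48 values was a WT liver at 8 h. At 12 h Sqle stood at 46.3, 63.1, 37.9 and 27.3 CPM in the KO livers, against 43.6, 15.6, 153 and 73.6 CPM in the WT livers. At 16 h Sqle stood at 27.7, 101 and 100.0 CPM in the KO livers, against 129, 89.4, 62.2, 14.5 and 90.8 CPM in the WT livers. At 20 h Sqle stood at 39.7, 70.6, 18.4 and 31.6 CPM in the KO livers, against 27.3, 28.0, 52.3 and 9.17 CPM in the WT livers. The highest of all values was a WT liver at 12 h, and the same group held another at 15.6 CPM. The difference across times was 0.27 ± 0.26 (log2, adjusted p = 0.571).

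Cyp51 (ENSMUSG00000001467, chromosome 5, 4081145 to 4104746 in mm9), the lanosterol demethylase, had a positive difference at every time. At 0 h Cyp51 stood at 164, 59.8, 114 and 99.8 CPM in the KO livers, against 156, 47.0, 72.7 and 50.3 CPM in the WT livers. At 4 h Cyp51 stood at 151, 252, 284 and 45.4 CPM in the KO livers, against 149.7, 72.7, 113 and 52.2 CPM in the WT livers. At 8 h Cyp51 stood at 145, 218, 95.7 and 111 CPM in the KO livers, against 148, 129, 26.3 and 85.6 CPM in the WT livers. In each group the livers spread over more than the distance between the genotype means, which at 4 h were 183 ± 108 CPM (SD, n = 4) in KO and 97.0 ± 43.3 CPM (SD, n = 4) in WT. At 12 h Cyp51 stood at 216, 290.1, 164 and 99.2 CPM in the KO livers, against 185, 89.0, 230.0 and 145 CPM in the WT livers. At 16 h Cyp51 stood at 146, 318 and 474 CPM in the KO livers, against 302, 403, 184, 62.4 and 300.5 CPM in the WT livers. At 20 h Cyp51 stood at 95.1, 229.7, 117 and 128 CPM in the KO livers, against 104, 180.4, 182 and 39.3 CPM in the WT livers. Both genotypes had their highest mean at 16 h and their lowest at 0 h, 2.86-fold apart in KO and 3.07-fold apart in WT. The difference across times was 0.44 ± 0.22 (log2, adjusted p = 0.293).

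Sc4mol (ENSMUSG00000031604, chromosome 8, 67196936 to 67212589 in mm9), the methylsterol monooxygenase that acts after Cyp51, had the largest difference of the 27 genes. At 0 h Sc4mol stood at 115, 44.3, 116 and 68.8 CPM in the KO livers, against 73.8, 38.5, 60.6 and 35.7 CPM in the WT livers. At 4 h Sc4mol stood at 177, 462, 445 and 81.9 CPM in the KO livers, against 149, 71.1, 166 and 64.7 CPM in the WT livers. At 8 h Sc4mol stood at 253, 387, 218 and 100.0 CPM in the KO livers, against 317, 186, 51.4 and 137 CPM in the WT livers. At 0 h 2 of 4 KO livers and at 4 h 3 of 4 lay above all WT livers, and the others overlapped with WT. At 12 h Sc4mol stood at 387, 401, 220.1 and 179 CPM in the KO livers, against 316, 111, 370.2 and 311 CPM in the WT livers. At 16 h Sc4mol stood at 104, 320.0 and 591 CPM in the KO livers, against 316, 499, 136, 55.4 and 231 CPM in the WT livers. At 20 h Sc4mol stood at 75.6, 223, 76.0 and 101 CPM in the KO livers, against 79.1, 116, 132 and 31.7 CPM in the WT livers. Means were highest at 16 h in KO (338 ± 244 CPM, SD, n = 3) and at 12 h in WT (277 ± 114 CPM, SD, n = 4). The difference was 0.59 ± 0.24 across times (log2, adjusted p = 0.202) and 1.37 ± 0.59 at 4 h (adjusted p = 0.169).

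Of the other sterol enzymes, Dhcr7 had a negative difference of -0.30 ± 0.26 on the log2 scale (adjusted p = 0.539). Sc5d, the lathosterol oxidase, differed by 0.24 ± 0.11 on the log2 scale (adjusted p = 0.240), Fdft1 by 0.24 ± 0.14 and the sterol dehydrogenase Nsdhl by 0.23 ± 0.23. The ketosteroid reductase Hsd17b7, the sterol isomerase Ebp, the lanosterol synthase Lss and the sterol reductase Tm7sf2 lay between -0.03 and 0.09. Fdft1 shares 769 bases with Ctsb, Tm7sf2 shares 532 bases with 1110014N23Rik and Lss shares 11268 bases with 4930483K19Rik, so their counts are uncertain by the reads of those genes.

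**Figure D2:**
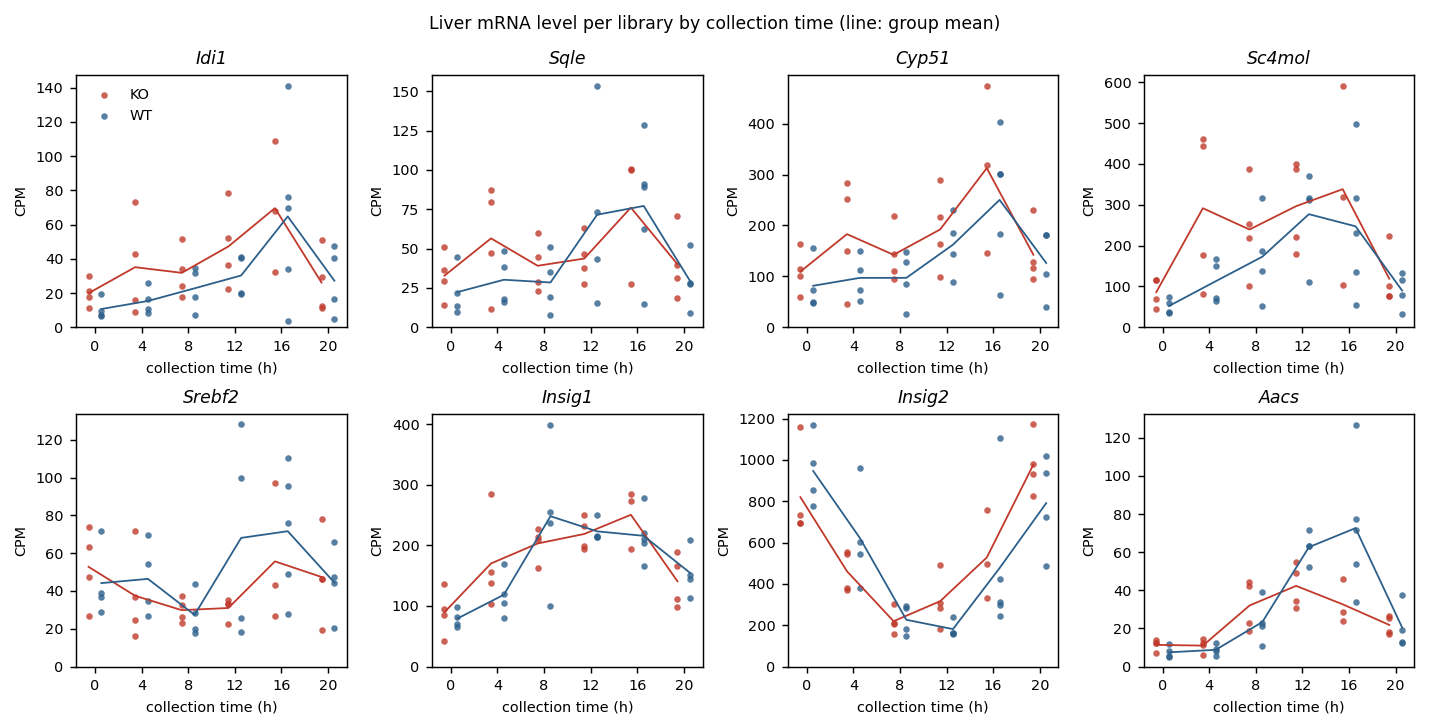
Level in CPM (y axis, linear from 0) at each collection time in hours (x axis) for 8 genes, 1 point per liver, KO left and WT right of the tick, with a line through the group means. Insig2 is highest at 20 h in KO and at 0 h in WT and low at 8 to 12 h, while Aacs and Insig1 are low at 0 h in both genotypes.

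Of the 4 regulators, Srebf2 (ENSMUSG00000022463, chromosome 15, 81977696 to 82035806 in mm9) is the transcription factor itself. At 0 h Srebf2 stood at 63.0, 26.9, 73.8 and 47.2 CPM in the KO livers, against 71.7, 38.9, 36.9 and 29.1 CPM in the WT livers. At 4 h Srebf2 stood at 71.7, 36.8, 24.8 and 16.4 CPM in the KO livers, against 69.7, 54.3, 34.6 and 27.0 CPM in the WT livers. At 8 h Srebf2 stood at 37.4, 32.8, 26.0 and 23.1 CPM in the KO livers, against 43.6, 17.6, 19.9 and 28.1 CPM in the WT livers. KO and WT livers overlapped at each of these times. At 12 h Srebf2 stood at 22.4, 35.4, 33.2 and 32.9 CPM in the KO livers, against 25.9, 18.4, 128 and 99.9 CPM in the WT livers. At 16 h Srebf2 stood at 43.2, 97.0 and 26.7 CPM in the KO livers, against 110.4, 27.5, 75.7, 48.7 and 95.6 CPM in the WT livers. At 20 h Srebf2 stood at 77.8, 46.1, 19.2 and 46.3 CPM in the KO livers, against 65.8, 20.2, 47.4 and 44.4 CPM in the WT livers. At 12 h 2 WT livers were far above the rest while the other 2 lay within or below the range of the KO livers, and the group mean was 31.0 ± 5.84 CPM (SD, n = 4) in KO and 68.1 ± 54.3 CPM (SD, n = 4) in WT. The difference was -0.22 ± 0.21 across times (log2, adjusted p = 0.564), of the opposite sign to that of most enzymes. Scap, the escort, differed by -0.17 ± 0.18 (adjusted p = 0.617), and it shares 3383 bases with 5830462I19Rik.

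Insig1 and Insig2 retain SCAP, and Insig1 is itself a target of SREBP2. Insig2 (ENSMUSG00000003721, chromosome 1, 123200930 to 123229166 in mm9) had the largest daily amplitude of the regulators. At 0 h Insig2 stood at 694, 1160.5, 733 and 693 CPM in the KO livers, against 777, 1169, 986 and 856 CPM in the WT livers. At 4 h Insig2 stood at 369, 544, 378 and 554 CPM in the KO livers, against 382, 963, 603 and 544 CPM in the WT livers. At 8 h Insig2 stood at 209.9, 303, 205 and 159 CPM in the KO livers, against 147, 292, 284 and 182 CPM in the WT livers. The level was high at 0 h and lower at 8 h in every liver of both genotypes, and the genotypes overlapped. At 12 h Insig2 stood at 183, 307, 492 and 284 CPM in the KO livers, against 164, 163, 239 and 159 CPM in the WT livers. At 16 h Insig2 stood at 496, 757 and 331 CPM in the KO livers, against 312, 1104, 244, 298 and 426 CPM in the WT livers. At 20 h Insig2 stood at 933, 826, 1172 and 979 CPM in the KO livers, against 724, 1018, 936 and 486 CPM in the WT livers. The lowest mean was at 8 h in KO and at 12 h in WT, and the highest was at 20 h in KO and at 0 h in WT, a 4.46-fold range in KO and a 5.23-fold range in WT. The difference across times was 0.10 ± 0.14 (log2, adjusted p = 0.726). Insig1 had the reverse course: its mean was lowest at 0 h in both genotypes, 89.5 ± 39.0 CPM (SD, n = 4) in KO and 79.0 ± 14.2 CPM (SD, n = 4) in WT, and highest at 16 h in KO (250.3 ± 48.9 CPM, SD, n = 3) and at 8 h in WT (248 ± 122 CPM, SD, n = 4). It differed by 0.08 ± 0.12 across times (adjusted p = 0.745).

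Among the further targets, Aacs (ENSMUSG00000029482, chromosome 5, 125956184 to 125997782 in mm9) encodes acetoacetyl-CoA synthetase, which returns ketone bodies to sterol and fatty acid synthesis. At 0 h Aacs stood at 12.5, 7.0, 12.1 and 13.8 CPM in the KO livers, against 11.6, 7.99, 4.96 and 5.33 CPM in the WT livers. At 4 h Aacs stood at 11.5, 12.3, 14.3 and 5.80 CPM in the KO livers, against 12.5, 5.27, 7.93 and 9.40 CPM in the WT livers. At 8 h Aacs stood at 22.8, 44.2, 18.8 and 42.3 CPM in the KO livers, against 38.9, 22.7, 10.6 and 21.1 CPM in the WT livers. At 0 and 4 h the highest of all livers had 14.3 CPM, and at 8 h both groups were higher and overlapped. At 12 h Aacs stood at 55.0, 30.7, 34.4 and 49.2 CPM in the KO livers, against 71.8, 63.3, 63.2 and 52.3 CPM in the WT livers. At 16 h Aacs stood at 45.7, 28.4 and 23.8 CPM in the KO livers, against 127, 33.8, 77.2, 71.7 and 54.0 CPM in the WT livers. At 20 h Aacs stood at 26.6, 17.1, 25.3 and 18.3 CPM in the KO livers, against 37.3, 12.5, 19.3 and 13.0 CPM in the WT livers. At 12 h 3 of 4 KO livers lay below all WT livers, and at 16 h 2 of 3 did. Group means spanned a 3.85-fold range in KO and a 9.73-fold range in WT. The difference at 16 h was -1.15 ± 0.40 (log2, adjusted p = 0.557) and that across times was -0.04 ± 0.15.

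Stard4, which carries sterol between membranes, and Soat2, which esterifies cholesterol in liver and intestine, were the genes whose genotypes did not overlap at some time. At 0 h Stard4 stood at 71.6, 42.5, 67.0 and 49.5 CPM in the KO livers, against 42.3, 30.0, 38.8 and 37.8 CPM in the WT livers. The lowest KO liver lay just above the highest WT liver, where 3.66% of all genes did not overlap, in either direction (difference 0.63 ± 0.33, log2, adjusted p = 0.935). At 4 h Stard4 stood at 61.6, 122, 184 and 69.1 CPM in the KO livers, against 64.9, 45.0, 71.0 and 49.2 CPM in the WT livers. Here the difference was 0.92 ± 0.33 (adjusted p = 0.132), and without KO_4h replicate 1 it was 1.12 with an adjusted p of 0.021, past the threshold. In that fit Stard4 was the 1 gene of 27 called, where 24.6% of all genes were. At 4 h Soat2 stood at 36.4, 28.6, 37.0 and 43.1 CPM in the KO livers, against 58.7, 45.5, 55.7 and 46.9 CPM in the WT livers. All KO livers were below all WT livers (difference -0.51 ± 0.24, adjusted p = 0.189), where 7.79% of all genes did not overlap. At 8, 12, 16 and 20 h 0 of 27 genes had groups that did not overlap, against 1.67, 3.25, 1.17 and 1.1% of all genes. Across times Stard4 differed by 0.30 ± 0.13 and Soat2 by -0.24 ± 0.10 (adjusted p = 0.236 and 0.204). Acat2, the cytosolic thiolase that joins acetyl-CoA units at the start of the pathway, differed by 0.17 ± 0.09, the retinol dehydrogenase Rdh11 by 0.08 ± 0.11 and the endoplasmic reticulum protein Tmem97 by 0.06 ± 0.09.

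The daily rhythm was tested by fitting a 24 h cosine and sine to each genotype. In KO 9 of 27 genes passed (adjusted p under 0.05, edgeR quasi-likelihood test), against 17% of all genes, and in WT 18 of 27 passed, against 16.3%. The 9 in KO were Pmvk, Fdft1, Sc5d, Insig1, Insig2, Stard4, Acat2, Aacs and Tmem97. The 18 in WT were Mvk, Pmvk, Mvd, Idi1, Fdps, Fdft1, Sqle, Lss, Cyp51, Sc4mol, Nsdhl, Insig1, Insig2, Stard4, Acat2, Aacs, Tmem97 and Soat2. In total 8 genes passed in both genotypes, against 9.59% of all genes. Passing in 1 genotype alone does not show a difference, and the test of the rhythm difference itself called 0 of 27 genes in edgeR (0.00733% of all genes) and 0 in DESeq2. At an unadjusted p of 0.05, 2 genes (Acat2 and Aacs) passed it in edgeR, against 2.66% of all genes, and 2 in DESeq2. Over all genes, DESeq2 called 5 of 13646 at an adjusted p, and its unadjusted share was not counted.

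By role, 1 of 6 mevalonate enzymes passed in KO and 5 of 6 in WT, 2 of 11 sterol enzymes in KO and 6 of 11 in WT, 2 of 4 regulators in each genotype, and 4 of 6 further targets in KO and 5 of 6 in WT. Neither Srebf2 (adjusted p = 0.244 in KO and 0.247 in WT) nor Scap (0.257 in KO and 0.768 in WT) passed in either genotype. The amplitude, the distance from mean to peak, had a median of 0.41 in KO and 0.60 in WT over the 27 genes (log2), where all genes had 0.25 in KO and 0.22 in WT. It was larger in WT than in KO for 21 of 27, and the share over all genes was not counted. These 21 are not separate observations, since many of the genes varied together between livers of a group. The medians were not adjusted for the spread within groups, which was wider in the 27 genes than over all genes. The widest gap was in Aacs, with an amplitude of 1.04 in KO (adjusted p = 4.4e-05) and 1.77 in WT (adjusted p = 2.4e-11). Mvd followed with 0.27 in KO and 0.89 in WT, and Sqle with 0.27 in KO and 0.80 in WT, but their rhythm differences had an adjusted p of 1.000, as did that of every other gene of the list.

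**Figure D3:**
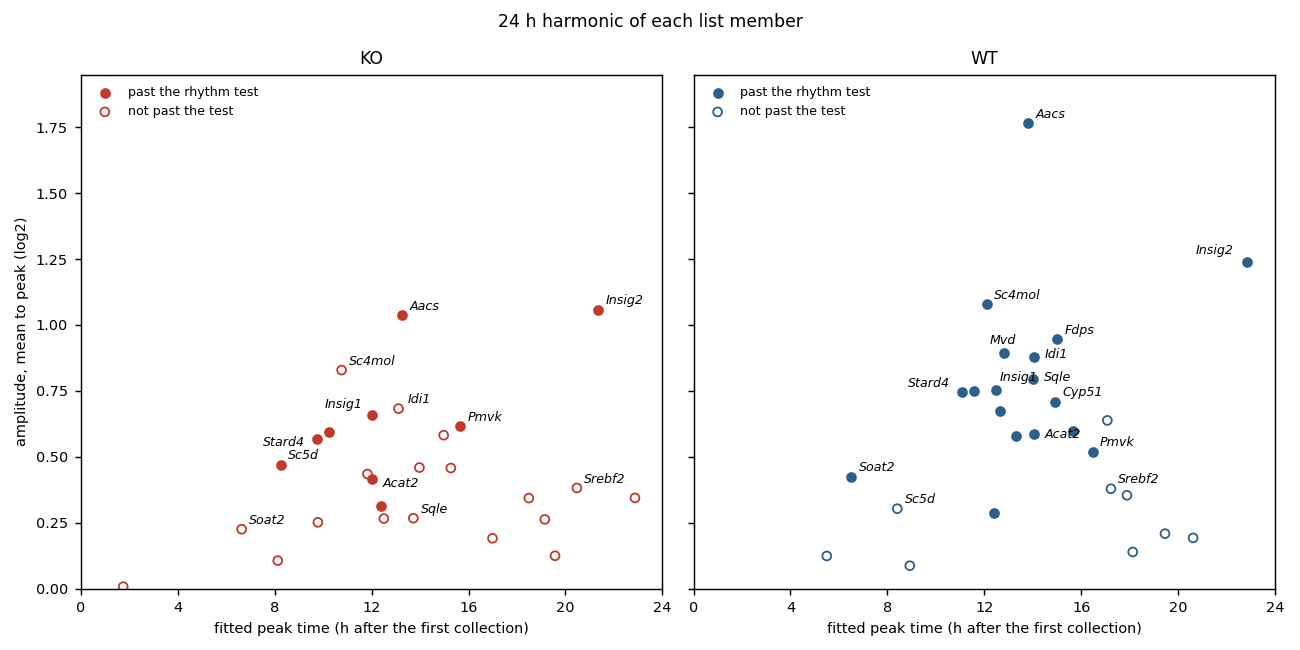
Fitted peak time in hours after the first collection (x axis) and amplitude on the log2 scale (y axis) of the 27 genes in KO (left) and WT (right). Filled points passed the rhythm test (9 in KO, 18 in WT). Insig2 peaks late, at 21.3 h in KO and 22.8 h in WT, apart from the enzymes that passed. Of the enzymes that did not pass, Ebp peaks at 19.1 h in KO and 20.6 h in WT.

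Peak times of the genes that passed are shown in the plot of peak times and amplitudes. In KO 7 of the 9, all but Insig2 and Sc5d, peaked between 9.77 and 15.7 h (median 12.0 h). In WT 16 of the 18, all but Insig2 and Soat2, peaked between 11.1 and 16.5 h (median 13.6 h). These ranges were set by the genes themselves, and of all genes past the rhythm test 15.8% in KO and 23.5% in WT peaked within them. These hours count from the label 0, and the labels do not give the circadian phase of that time. Insig1 peaked with the enzymes, at 12.0 h in KO and 12.5 h in WT, with an amplitude of 0.66 in KO and 0.75 in WT. Insig2 peaked at 21.3 h in KO and 22.8 h in WT, with an amplitude of 1.06 in KO (adjusted p = 6.5e-06) and 1.24 in WT (adjusted p = 2.5e-07). Sc5d peaked early, at 8.25 h in KO and 8.41 h in WT, as did Soat2 at 6.64 h in KO and 6.51 h in WT, with Sc5d past the test in KO and Soat2 in WT.

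Some rhythm calls hung on few libraries. Pmvk left the KO calls without KO_16h replicate 2 (adjusted p = 0.0737). Sqle left the WT calls without WT_12h replicate 3 (0.0598) or WT_16h replicate 1 (0.0561). Cyp51 left them without WT_0h replicate 2 (0.0532), WT_4h replicate 4 (0.0556) or WT_16h replicate 1 (0.0602), 2 (0.0840) or 5 (0.0573). Mvk, Nsdhl and Tmem97 in WT lost their calls without any one of 20, 12 and 17 libraries (adjusted p up to 0.165, 0.137 and 0.136), and Tmem97 in KO without any one of 10 (up to 0.109). A test for any difference between the 6 times, with no harmonic, called 4 genes in KO and 10 in WT, against 9.73 and 8.55% of all genes. Without both 16 h groups, 9 genes passed in KO and 10 in WT, where 2686 and 1556 of all 13341 genes tested did. Without the 3 libraries left out as unusual, 7 passed in KO and 15 in WT, where 1764 and 2099 of all 13842 genes tested did.

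Livers of the same genotype and time differed widely in these genes. The standard deviation of log2 CPM within groups had a median of 0.53 over the 27 genes, against 0.41 over all genes and 0.35 over the 9422 genes that averaged 5 CPM or more. It was 1.12 for Idi1 and 1.01 for Sqle, and 0.30 for Acat2, the lowest of the list. To see whether the genes varied together, the log2 CPM of Sqle was added to the model of the 12 group means, so that only deviations of a mouse from its own group counted. A slope of 1 means that a gene and Sqle deviated by the same amount on the log2 scale.

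In this test 19 of 26 genes passed (Sqle itself not counted), all with a positive slope, against 0.623% of all genes in either direction and 0.55% with a positive slope. They were 5 of 6 mevalonate enzymes, 8 of the 10 other sterol enzymes, 2 of 4 regulators and 4 of 6 further targets. The steepest were Idi1 (0.86 ± 0.11, SE; adjusted p = 4.7e-06), Sc4mol (0.83 ± 0.07; 1.3e-11), Fdps (0.80 ± 0.06; 3.7e-12), Cyp51 (0.77 ± 0.06; 3.7e-12) and Nsdhl (0.76 ± 0.07; 7.8e-10). Insig1 (0.26 ± 0.06) and Srebf2 (0.43 ± 0.10) passed with an adjusted p of 0.0287 and 0.0369, and Sc5d with 0.0462. These 3 calls were lost without any one of 7, 16 and 31 libraries (adjusted p up to 0.0645, 0.160 and 0.181), and that of Hsd17b7 without WT_16h replicate 4 (0.0634). Insig2 (0.01 ± 0.08), Soat2 (0.02 ± 0.05), Ggps1 (0.04 ± 0.07), Ebp (0.11 ± 0.06), Aacs (0.17 ± 0.09), Tm7sf2 (0.19 ± 0.07) and Scap (0.21 ± 0.10) did not pass. Without the 3 unusual libraries 16 of 26 genes passed, where 52 of all 13842 genes tested did. Aacs had the largest daily amplitude in WT and a slope on Sqle whose adjusted p was 0.474.

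The slope calls depended on how replicate numbers were treated. Livers numbered 1 lay above their group mean for Sqle in 10 of 12 groups, and livers numbered 4 lay below it in 10 of 11. With the number as a block within each time, 8 of 26 genes passed, against 0.0879% of all genes: Fdps, Cyp51, Sc4mol, Nsdhl, Fdft1, Idi1, Mvd and Lss, with slopes from 0.45 to 0.84. In that fit Stard4 had a slope of 0.24 (adjusted p = 0.248), Srebf2 0.50 (0.196) and Insig1 0.14 (0.538). With the number as a term shared by all times, an alternative chosen after seeing the data, 16 of 26 passed, against 0.293% of all genes, and those that no longer did were Srebf2 (adjusted p = 0.114), Insig1 (0.169) and Sc5d (0.227). What the numbers stand for is not given in the labels, and their part in the slopes beyond these fits was not tested.

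**Figure D4:**
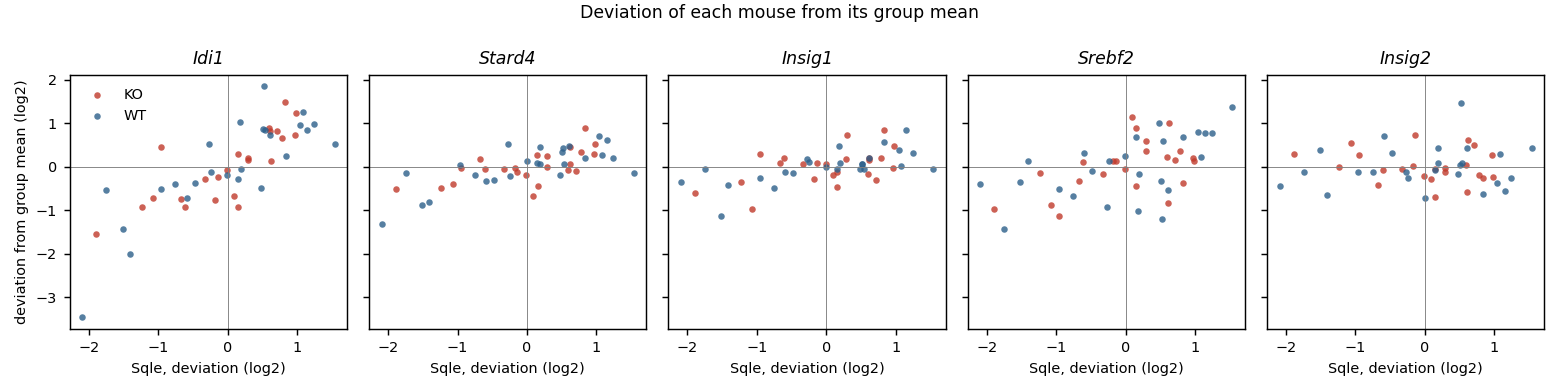
Deviation of each of the 48 livers from its group mean for Sqle (x axis, log2 CPM) and 5 genes (y axis, log2 CPM), KO and WT in separate colours. Idi1 follows Sqle along most of its range, with a Pearson correlation of 0.81, while Insig2 shows no slope, with 0.01.

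The plot of these deviations shows 5 relations, each tested by 100000 two-sided permutations of the libraries within groups (n = 48), which took no account of the replicate numbers. Idi1 had a Pearson correlation with Sqle of 0.81 and a Spearman rho of 0.82 (permutation p = 1e-05 for both, the smallest they can give). Stard4 had 0.70 and a rho of 0.67 (permutation p = 3e-05 for both), Insig1 had 0.60 and a rho of 0.56 (permutation p = 4e-05 and 0.00023), and Srebf2 had 0.54 and a rho of 0.54 (permutation p = 0.0021 and 0.0011). Insig2 had 0.01 and a rho of -0.03 (permutation p = 0.976 and 0.838). Without the 2 livers farthest from the median of Sqle, WT_16h replicate 4 and KO_4h replicate 4, the Pearson correlations were 0.77, 0.63, 0.56 and 0.52 for Idi1, Stard4, Insig1 and Srebf2 and -0.02 for Insig2. Within KO livers (n = 23) the correlations of Idi1, Stard4, Insig1, Srebf2 and Insig2 were 0.80, 0.63, 0.51, 0.51 and -0.20, and within WT livers (n = 25) they were 0.82, 0.74, 0.68, 0.56 and 0.12. The points of a liver share its library and its scaling. The adjusted p-values of these genes over all genes are those of the slopes.

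Outside the list, 55 genes had a positive and 10 a negative slope on Sqle. Named as examples after their values were seen, and not as the genes of lowest p, Acss2, an acetyl-CoA synthetase, had a slope of 0.34 ± 0.05 (adjusted p = 2.1e-05) and Mmab, a cobalamin adenosyltransferase whose gene lies 209 bases from Mvk, had 0.45 ± 0.07 (7.3e-05). Reads at the ends of Mmab and Mvk cannot be assigned by strand with this kit.

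Other lists of sterol and lipid biology were read from the same fits. Across times 0 genes were called in any of them by edgeR. Of all genes, 1.4% were called and 17.1% passed at an unadjusted p. Of 8 genes of sterol sensing, 2 passed at an unadjusted p, Srebf1, which drives fatty acid synthesis (-0.54 ± 0.24, adjusted p = 0.245), and the sterol receptor Nr1h2 (-0.20 ± 0.09, adjusted p = 0.263), and the list median was -0.02 (log2). Of 13 genes of sterol export, storage and conversion, 3 passed at an unadjusted p: Cyp7b1, an oxysterol hydroxylase of bile acid synthesis (0.31 ± 0.10, adjusted p = 0.116), the lysosomal lipase Lipa (0.23 ± 0.09, 0.207) and the cholesterol ester hydrolase Nceh1 (0.26 ± 0.11, 0.213), with a list median of 0.03. Of 8 genes of the isoprenoid branch, which draws on the same mevalonate, 0 passed at an unadjusted p in edgeR (median 0.05), the lowest being Coq2 of ubiquinone synthesis (0.11 ± 0.07, adjusted p = 0.368). Of 8 genes of fatty acid synthesis, 1 did (median -0.02), the elongase Elovl6 (0.35 ± 0.14, adjusted p = 0.195), while Fasn had -0.31 ± 0.21 (adjusted p = 0.442). Rhythm was called in KO and WT for 1 and 1 gene of sterol sensing, 3 and 3 of export, storage and conversion, 1 and 0 of the isoprenoid branch and 1 and 1 of fatty acid synthesis. Of all genes, 17% were called in KO and 16.3% in WT. A slope on Sqle was called for 1 gene of these 37, Acss2 of fatty acid synthesis, against 0.623% of all genes.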

How the data were processed

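Liver poly-A RNA was sequenced on a HiSeq 2000 from libraries made with a TruSeq version 2 kit, which does not keep strand, per the labels' protocols. The authors deposited whole-number read counts per gene. CASAVA, STAR 2.4.1d and the genome build mm9 were used per the submitters' processing notes. Of the counting rule, the annotation and the reason why totals are nearly equal, the sources used here say nothing, so counting error may be understated. Alb, the only gene marked as high, is a scaled value and was left out. No column of another sample was present, and no pair of libraries of a group agreed within sampling noise.

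The counts were then fitted in edgeR 4.0.16 (R 4.3.3). Its filter (minimum count 10, minimum total 15, over the 12 groups) kept 13646 genes and removed 8707. TMM factors scaled the libraries. A quasi-likelihood model with 12 group means over all 48 libraries gave the KO minus WT differences and the interaction, a second with a 24 h cosine and sine per genotype gave the rhythm tests, and another added to the group means the log2 CPM of Sqle (prior count 2). Benjamini-Hochberg adjustment covered every gene tested, and calls used a threshold of 0.05. Standard errors were obtained from each log2 change and its F statistic. Peak time and amplitude are least-squares fits to log2 CPM. Scripts were tested on simulated data. Alternatives were DESeq2 1.42.0, RLE scaling, no filter, a replicate block, each library left out (with the gene set and dispersion trend of all 48 kept), and groups or libraries left out. Groups, times and replicate numbers came from the labels. Of 23 KO and WT pairs with the same number and time, 13 correlated above 0.1 in their deviations from the group mean across 2000 genes (-0.361 to 0.542). At 4 h all 4 did (0.231 to 0.460). The main fits did not pair the mice by number at any time, and the replicate block was an alternative.

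Genes given with the value of every library were the 3 with the largest difference across times, the 3 with the largest pooled amplitude, Srebf2 and Sqle, with values of Stard4 and Soat2 added after they were seen. Up to 3 genes of lowest p were named from each further list. The genes, lists, tests and alternatives were chosen with earlier results of these data known.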

Additional observations from a re-analysis of the deposited data

Results flagged for a closer look

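Within each group of 4 or 5 livers, the gap of the highest or lowest liver to its neighbour was compared with the range of the group (Dixon's test) for the genes given by library. Of 77 groups, 3 stood out, and chance gives about 1 in 20. All 3 were of Insig2. KO_0h replicate 2, the liver with pancreatic transcripts, had 1160.5 CPM, where the nearest had 733 CPM. WT_12h replicate 3 had 239 CPM, where the nearest had 164 CPM. WT_16h replicate 2 had 1104 CPM, where the nearest had 426 CPM.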

How the results depend on the processing

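Counts of genes of the list called at an adjusted p kept to within 1.5 times their value, and the KO and WT comparisons kept 0 calls, under DESeq2, RLE scaling, no filter on low counts, the replicate block and without the 3 unusual libraries, with the exception that 8 in place of 19 genes had a slope on Sqle under the replicate block. Counts at an unadjusted p moved more, such as 4 in DESeq2 and 1 under the block at 12 h in place of 2. Rhythm in WT was called for 10 in place of 18 genes without both 16 h groups, and over all genes for 1556 in place of 2228. A test for any difference between the times called 4 in place of 9 genes in KO and 10 in place of 18 in WT. Leaving out each library in turn gave 0 to 1 genes at 4 h, 0 in the other KO and WT comparisons, 8 to 10 for rhythm in KO, 13 to 19 for rhythm in WT and 16 to 19 for the slope. In every one of 54 settings, 7 of the 9 rhythm calls in KO, 10 of the 18 in WT and 8 of the 19 slope calls remained. These settings do not include the test for any difference between the times, Idi1 in place of Sqle or the block shared by all times. Differences near 0 changed sign: Tm7sf2 to 0.0294 under the replicate block and 0.0035 without both 16 h groups, Lss to 0.0221 and 0.0504 in the same fits, Aacs to 0.18 without both 16 h groups and Mvk to -0.11 without the 3 unusual libraries. With single libraries left out, those 4 ranged around 0 as well: Tm7sf2 from -0.0790 to 0.0491, Lss from -0.0918 to 0.0589, Aacs from -0.0941 to 0.0343 and Mvk from -0.14 to 0.13. The cause of these shifts was not tested. Over all genes, the 191 calls across times were 356 in DESeq2, 122 with no filter, 127 under the block and 303 without the 3 unusual libraries, and the 5 calls at 4 h were 192 in DESeq2, 543 without both 16 h groups, 2 with no filter and 2 under the block. The 85 slope calls were 153 in DESeq2, 12 under the block, 40 with the block shared by all times, 52 without the 3 unusual libraries and 685 with Idi1 in place of Sqle. Without 1 library, calls over all genes ranged from 98 to 484 across times and from 0 to 3351 at 4 h. They ranged from 1628 to 3697 for rhythm in KO, 1874 to 2982 for rhythm in WT and 45 to 109 for the slope. With 3 to 5 livers a group and SDs near 1 on the log2 scale for Idi1 and Sqle, small differences at single times were not detectable.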
